A study of Mus musculus with 5 samples.

Results

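The genes described here encode the CD3 complex of the T-cell receptor (*Cd3d*, *Cd3e*, *Cd3g* and *Cd247*), the kinases and the adaptor that act directly below it (*Lck*, *Zap70* and *Lat*), the T-cell surface protein *Thy1*, and *Gata3* and *Tcf7*, transcription factors of early T-cell development. They were chosen by name, with levels of T- and natural killer (NK)-cell markers on these arrays already known, so their differences between the groups are given as a description and carry no test. Of the 10 genes, 8 were named by a probe set, 1 each, among 23835 probe sets in all (26 of them Affymetrix controls) and 17323 named genes. The probe sets were 1422828_at (*Cd3d*), 1422105_at (*Cd3e*), 1419178_at (*Cd3g*), 1426079_at (*Cd247*), 1422701_at (*Zap70*), 1460651_at (*Lat*), 1423135_at (*Thy1*) and 1448886_at (*Gata3*). *Lck* and *Tcf7* were not analysed here, because the probe annotation used names no probe set for them.

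RNA of pro-B cells sorted by FACS from bone marrow as B220+IgM-CD43+CD24+ was hybridised to 5 Affymetrix arrays, 2 from *Mef2c*-deficient mice and 3 from control mice, all 9 months old. The *Mef2c*-deficient mice were Vav-Cre *Mef2c* fl/fl animals, in which Cre under the Vav promoter deletes the floxed gene throughout the haematopoietic system and not in B-lineage cells alone. As controls the study took age-matched mice that were Vav-Cre *Mef2c* fl/+, or that lacked Cre and were *Mef2c* fl/+ or *Mef2c* fl/fl, and the labels do not say which of these genotypes each control array came from. The question addressed here is where T-lineage transcripts appear among these arrays, since a bulk sort of pro-B cells measures every cell that enters the gate.

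In a T cell, the antigen receptor has no signalling domain of its own and is held on the membrane by the CD3 gamma, delta and epsilon chains and the zeta chain encoded by *Cd247*. The kinase LCK phosphorylates these chains, ZAP70 binds to them and phosphorylates the adaptor LAT, and LAT gathers the enzymes that raise calcium and activate RAS. B cells signal mainly through CD79A and CD79B and the kinase SYK, so *Cd3d*, *Cd3e* and *Cd3g* transcripts are ordinarily taken as marks of T cells. *Cd247*, *Zap70* and *Lat* are also used by NK cells, and are not taken here as marks of T or NK cells.

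*Cd3g*, *Cd3d* and *Cd3e* lie together on mouse chromosome 9, in that order, and their upstream sequences are shown because these 3 genes stood high on the same array. In GRCm38.p6, *Cd3g* runs from 44969572 to 44980431 and *Cd3d* from 44981769 to 44987052, in opposite directions, with start sites 1355 bases apart. *Cd3e* (44998735 to 45009663) starts 27825 bases from *Cd3d*. Both distances are between the start sites of the promoter windows, which lie inside the annotated gene by 17 bases for *Cd3d* and 52 bases for *Cd3e*. On the same build *Thy1* lies on chromosome 9 as well (44043384 to 44048579), *Zap70* and *Cd247* on chromosome 1 (36761798 to 36782821 and 165779952 to 165871153), *Gata3* on chromosome 2 (9857078 to 9887953) and *Lat* on chromosome 7 (126363827 to 126369705). The sequences below are from RefSeq on that build, 5′ to 3′ on each gene's own strand, and end where the annotated gene begins, and the capitals mark CANNTG, the core that E proteins bind.
Cd3g, chr9:44980432-44980681, minus strand: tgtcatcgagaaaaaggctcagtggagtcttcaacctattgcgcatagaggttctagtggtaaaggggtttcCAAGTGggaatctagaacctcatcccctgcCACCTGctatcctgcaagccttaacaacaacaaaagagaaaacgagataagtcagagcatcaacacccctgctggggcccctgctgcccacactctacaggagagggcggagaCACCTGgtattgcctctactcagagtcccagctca
Cd3d, chr9:44981536-44981768, plus strand: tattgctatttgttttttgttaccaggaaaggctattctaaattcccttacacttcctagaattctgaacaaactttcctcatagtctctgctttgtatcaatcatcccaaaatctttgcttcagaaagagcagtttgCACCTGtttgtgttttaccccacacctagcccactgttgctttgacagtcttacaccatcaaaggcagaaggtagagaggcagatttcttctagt
Cd3e, chr9:45009664-45009861, minus strand: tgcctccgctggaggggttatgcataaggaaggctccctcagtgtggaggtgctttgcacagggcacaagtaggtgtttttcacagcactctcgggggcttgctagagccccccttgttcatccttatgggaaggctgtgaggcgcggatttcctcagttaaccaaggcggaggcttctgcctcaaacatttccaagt

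The motif CANNTG, which reads the same on both strands, had 3 matches in the 250 bases before the start site of *Cd3g* and 1 each for *Cd3d* and *Cd3e*, the last reaching into the annotated gene and so not shown whole. It was also present in 66.22% of all 32851 promoter windows of that length in the RefSeq set. CTTTGA, the core bound by TCF7, matched 2 times in *Cd3d*, as ctttga and, on the other strand, as tcaaag, against at least 1 match in 13.83% of all windows, searched on both strands. GATAA, a core of GATA factor sites, matched once in *Cd3g*, against 22.58% of all windows. The MEF2 motif, present in 2.919% of windows, had no match in the windows of the 7 genes that the promoter set holds, and *Thy1* is not among those. These matches describe the letters of the windows only.

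The values are intensities that the authors deposited after robust multiarray averaging (RMA). They run beyond the largest count of a 16-bit scanner, while their natural logarithms run from 1.15 to 14.7, so the deposited values appear to be e raised to the log2 signal. On that reading a deposited fold of 2 corresponds to 1.62-fold in signal. Values, folds and log2 differences below are on the deposited scale, with the signal fold named where it is given. Identical values on 2 or more arrays occurred for 42.8% of probe sets and for 3 of the 8 genes (*Cd3e*, *Lat* and *Gata3*).

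*Mef2c*, the deleted gene, had values of 7379 and 6219 on *Mef2c*-deficient replicates 1 and 2, against 14006, 20854 and 17220 on the control arrays (log2 difference −1.34, standard error 0.28). Both *Mef2c*-deficient arrays were thus below all 3 controls, as they were for 23.5% of all probe sets. The *Mef2c* probe set stayed bright, at percentiles 93.08 and 91.79 of the *Mef2c*-deficient arrays and 93.12 to 95.19 of the controls. Bacterial transcripts spiked into each hybridisation mix gave a median value of 429609 on *Mef2c*-deficient replicate 1 and 112407 on replicate 2, against 32449 to 101409 on the control arrays. All 11 B-lineage markers measured were above the median of every array, but their median log2 difference was −1.25. *Cd79a*, a chain of the B-cell receptor, had 231011 and 250654 on the *Mef2c*-deficient arrays and 153021 to 257531 on the control arrays, whereas *Cd22*, an inhibitory coreceptor and the one marker of the list called (lower), had 540 and 618 against 3982 to 6507. The sort marker *Cd24a* was at 683783 and 152861 on the *Mef2c*-deficient arrays, against 528504 to 564591 on the controls. Of the other sort markers, *Ighm*, the IgM heavy chain, was low on both *Mef2c*-deficient arrays, with 15.2 and 77.1 for 1 probe set against 15655 to 37349 on the controls and 22.0 and 76.2 for another against 5012 to 12333. *Spn*, which encodes CD43, had 12954 and 22550.3, against 28712 to 53154 on the controls. *Ptprc*, which encodes CD45, of which B220 is 1 form, went the other way on *Mef2c*-deficient replicate 2, with 2245 and 9744 against 1805 to 2446 on the controls. Whether its probe set measures the B220 form was not tested, and it is also counted among the 22 T-cell receptor signalling genes below. The *Mef2c*-deficient arrays thus differed from the controls together in some of these markers and singly in others, so values are given for each array.

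*Cd3e*, the epsilon chain needed for surface assembly of the receptor, had 366 on *Mef2c*-deficient replicate 1 and 13843 on replicate 2, against 387, 232 and 387 on the 3 control arrays. *Cd3g*, the gamma chain, had 92.1 and 3212 on the *Mef2c*-deficient arrays, against 146, 194 and 135 on the control arrays. *Cd3d*, the delta chain, had 349.6 and 4684 on the *Mef2c*-deficient arrays, against 334, 582 and 124 on the control arrays. All 3 were high on *Mef2c*-deficient replicate 2 alone, while replicate 1 lay within the control range for *Cd3d* and *Cd3e* and below it for *Cd3g*. Replicate 2 exceeded the highest of the other 4 arrays 35.8-fold for *Cd3e*, 16.5-fold for *Cd3g* and 8.04-fold for *Cd3d*, or 11.9-fold, 6.99-fold and 4.24-fold in signal. Among 17621 named probe sets ordered by this ratio, a ranking added after the values had been seen, *Cd3e* was the fifth, *Cd3g* the 17th and *Cd3d* the 60th.

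**Figure D1:**
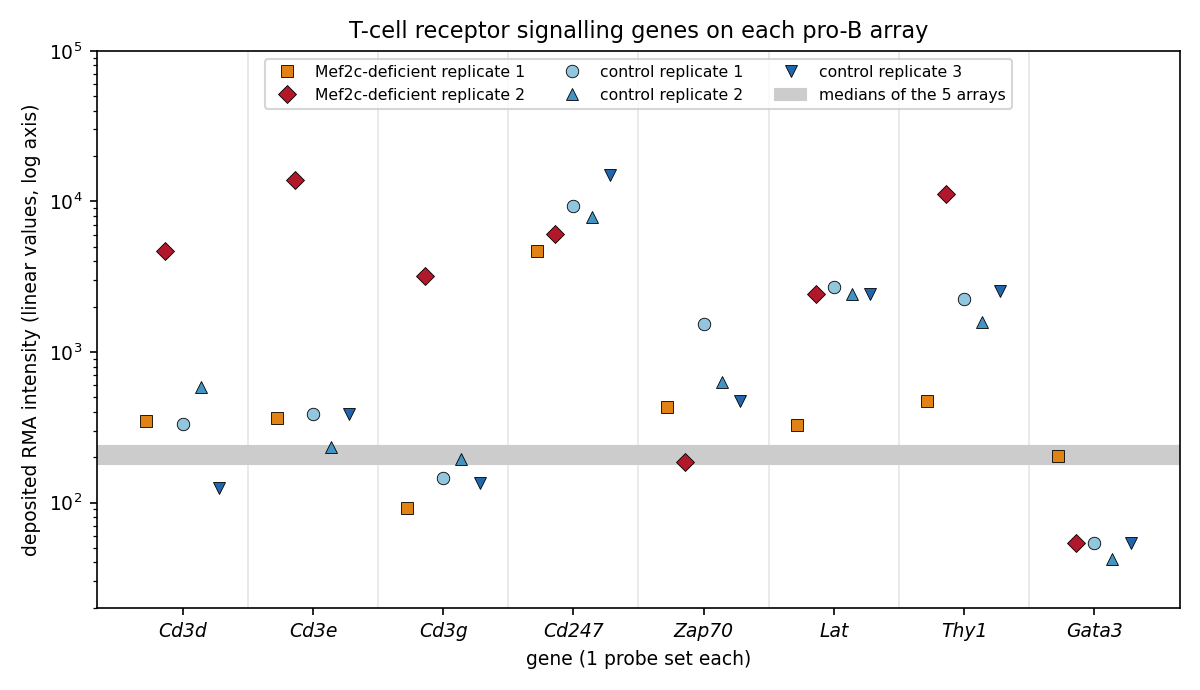
Deposited RMA intensity (log axis) of the 8 genes on each of the 5 arrays, with squares and diamonds for the 2 *Mef2c*-deficient arrays, blue symbols for the 3 control arrays and a grey band over the medians of the arrays. *Cd3d*, *Cd3e*, *Cd3g* and *Thy1* stand high on *Mef2c*-deficient replicate 2 alone, at 3212 to 13843.

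Within its own array, the *Cd3e* probe set lay at percentile 95.6 on *Mef2c*-deficient replicate 2, against 57.7 on replicate 1 and 52.9 to 60.3 on the controls. *Cd3d* lay at percentile 89.9 on replicate 2 and 57.0 on replicate 1, against 44.3 to 65.1 on the controls, and *Cd3g* at 87.3 and 31.2 against 45.5 to 50.1. Outside *Mef2c*-deficient replicate 2 these 3 probe sets lay between percentiles 31.2 and 65.1, where presence of the transcript cannot be read from the values alone.

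As group means, *Cd3e* was 7105 ± 9530 (SD, n = 2) on the *Mef2c*-deficient arrays and 336 ± 89.3 (SD, n = 3) on the control arrays. The log2 difference was 2.78 (standard error 1.56) for *Cd3e*, 2.15 (1.29) for *Cd3d* and 1.80 (1.51) for *Cd3g*. Each of these averages a high array and one that was not. Without *Mef2c*-deficient replicate 1 the differences were 5.41 for *Cd3e*, 4.02 for *Cd3d* and 4.36 for *Cd3g*. Without *Mef2c*-deficient replicate 2 they were 0.16 for *Cd3e*, 0.27 for *Cd3d* and −0.77 for *Cd3g*, so the direction of *Cd3g* turned on that array.

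*Cd247*, which encodes the zeta chain, did not follow the other CD3 genes. It had 4650.3 and 6080.01 on the *Mef2c*-deficient arrays, against 9374, 7856 and 14876 on the control arrays. As for 23.5% of all probe sets, both its *Mef2c*-deficient values were below all the controls. Its log2 difference was −0.96 (standard error 0.37), with group means of 5365 ± 1011 (SD, n = 2) on the *Mef2c*-deficient arrays and 10702 ± 3694 (SD, n = 3) on the control arrays. The probe set was bright on every array, at percentiles 90.1 and 91.7 of the *Mef2c*-deficient arrays and 89.6 to 92.8 of the control arrays. Its difference depended on the scaling of the arrays, at −0.05 after a further quantile normalization, 0.07 after cyclic loess and −1.19 after median centring.

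*Zap70*, the kinase that docks on phosphorylated CD3 chains, was lowest on the array where *Cd3e* was highest. It had 432 and 185 on the *Mef2c*-deficient arrays, against 1532, 629 and 469 on the control arrays. Both *Mef2c*-deficient values were again below all the controls, as for 23.5% of all probe sets. The log2 difference was −1.44 (standard error 0.66), and over the 4 other scalings it ranged from −1.67 with median centring to −0.60 with housekeeping centring. It was −2.05 without *Mef2c*-deficient replicate 1 and −0.83 without replicate 2. The control arrays themselves differed 3.27-fold from lowest to highest.

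*Lat*, the adaptor phosphorylated by ZAP70, had 329 and 2436 on the *Mef2c*-deficient arrays, against 2716, 2436 and 2436 on the control arrays. It was low on *Mef2c*-deficient replicate 1 alone, 7.68-fold under the geometric mean of the controls, whereas replicate 2 held the same value as 2 of the controls. The log2 difference of the groups was −1.50 (standard error 0.87), and −2.94 without replicate 2 against −0.05 without replicate 1.

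*Thy1*, a glycolipid-anchored surface protein of mouse thymocytes and T cells that is also found on early haematopoietic progenitors, differed between the *Mef2c*-deficient arrays in opposite directions. Its values were 470.3 and 11162 on these arrays, against 2249, 1573 and 2522 on the control arrays. Replicate 1 was 4.41-fold below the geometric mean of the controls and replicate 2 was 5.38-fold above it, with a ratio of 23.7 between them. The group difference of 0.14 on the log2 scale (standard error 1.36) therefore describes neither array, and its sign turned with median centring (−0.09). Without *Mef2c*-deficient replicate 1 the difference was 2.43, and without replicate 2 it was −2.14.

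*Gata3*, the transcription factor that commits progenitors to the T lineage and also acts in innate lymphoid cells, had 205 and 53.5 on the *Mef2c*-deficient arrays, against 53.5, 42.0 and 53.5 on the control arrays. It was at or below the median of the array on all 5 arrays, and the higher value belonged to *Mef2c*-deficient replicate 1, not to the array high in CD3 transcripts. Its log2 difference was 1.08 (standard error 0.61), and 0.12 without replicate 1.

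**Figure D2:**
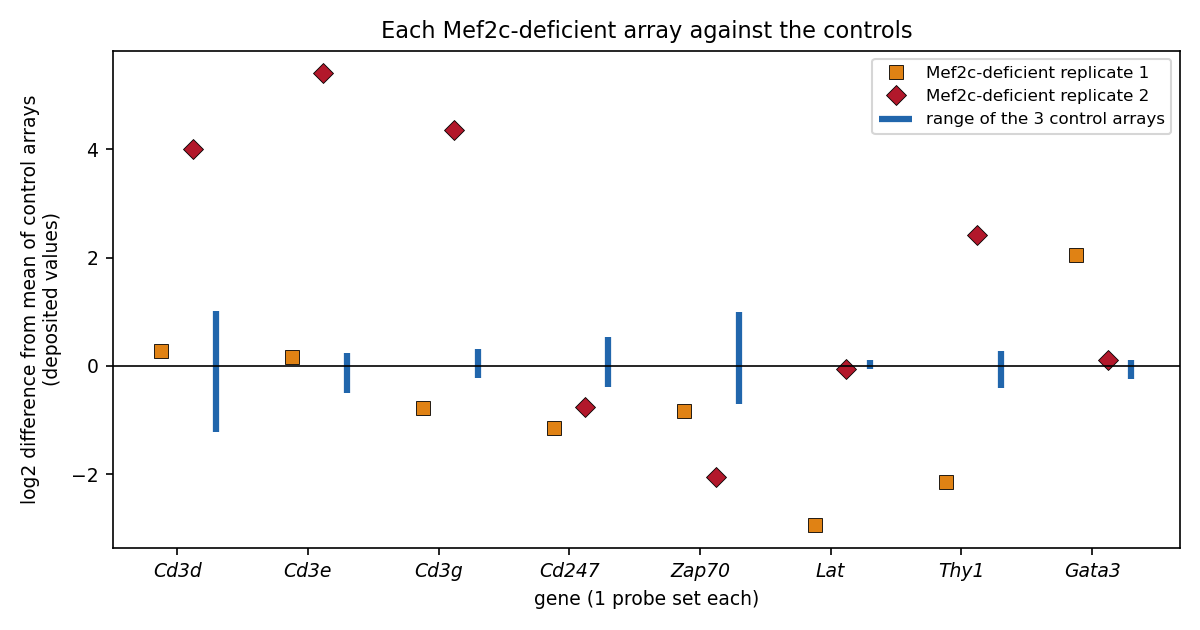
Log2 difference of each *Mef2c*-deficient array from the mean of the control arrays for the 8 genes, on deposited values, with bars for the range of the 3 control arrays. The 2 *Mef2c*-deficient arrays lie close together for *Cd247* and more than 4 log2 units apart for *Cd3e*, *Cd3g* and *Thy1*.

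Of the 8 genes, 0 were called lower and 0 higher at the study's thresholds, which were a 2-fold change or more (here in deposited values) and a limma p, not adjusted, of 0.05 or less. Among all 23809 probe sets tested, 13.5% were called lower and 10.1% higher, and the split moved with scaling, to 19.7% lower and 6.54% higher with median centring and to 2.52% lower and 47% higher with housekeeping centring. One gene, *Cd247*, had an unadjusted p under 0.05 by limma, and the methods' t-test at the same thresholds called 0, against 8.12% of all probe sets lower and 5.75% higher. The median log2 difference was 0.61 over the 8 genes and 0.19 over all probe sets. The latter was 0.03 after quantile normalization, 0.01 after cyclic loess, −0.04 with median centring and 1.02 with housekeeping centring. Both *Mef2c*-deficient arrays were below all controls for 2 of the 8 genes (*Cd247* and *Zap70*), against 23.5% of all probe sets, and above all controls for 0 of 8, against 27.5%.

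The calls of the 8 genes followed whichever *Mef2c*-deficient array was kept. Without *Mef2c*-deficient replicate 1, *Cd3d*, *Cd3e*, *Cd3g* and *Thy1* were called higher, where 8.69% of all probe sets were, and 0 lower (15.4%). Without replicate 2, *Lat* and *Thy1* were called lower (11.5% of all probe sets) and *Gata3* higher (18.4%). Without control replicate 2, *Cd247* was called lower (10.2%) and 0 genes higher (7.88%). In the fits that leave a single *Mef2c*-deficient array, that array is assumed to vary as the controls do. A value at least 4 times the highest of the other 4 arrays was found on *Mef2c*-deficient replicate 2 for 4 of the 8 genes, the same 4, and for 1.36% of all probe sets. It was found for 0 of the 8 genes on each of the other arrays, against 1.79% of all probe sets on *Mef2c*-deficient replicate 1 and 0.063% to 0.731% on the control arrays. The members were chosen with these levels known, and nothing is read from these counts.

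Each array was also described by the median, over the 8 genes, of its log2 difference from the mean of the other 4 arrays. This was −1.07 on *Mef2c*-deficient replicate 1 and 1.82 on replicate 2, against −0.16, −0.26 and −0.28 on the control arrays. Over *Cd3d*, *Cd3e* and *Cd3g* alone, a subset taken after the values had been seen, it was −1.19 and 4.55 on the *Mef2c*-deficient arrays and −1.17 to −0.51 on the controls. A difference of 4.55 is 23.4-fold on the deposited scale and 8.90-fold in signal.

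The genes of other T-lineage lists did not share one pattern with the CD3 genes. These lists held 43 measured genes, 1 probe set each: 2 receptor chains, 10 coreceptors and costimulators, 22 signalling genes and 9 early T-lineage regulators. At the study's thresholds 5 were called lower and 5 higher, against 13.5% and 10.1% of all probe sets, with a median log2 difference of 0.30. No probe set of any gene had an adjusted p under 0.05 (limma with Benjamini-Hochberg adjustment, lowest 0.102), while 7038 had an unadjusted p under 0.05, 12 of the 43 among them. By the methods' t-test, 9 probe sets of all genes passed an adjusted p of 0.05.

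Among coreceptors and costimulators, 3 of 10 were called higher and 0 lower, against 10.1% and 13.5% of all probe sets. *Cd8a*, the alpha chain of the coreceptor for class I MHC, had 111 and 186 in *Mef2c*-deficient pro-B cells, against 24.7, 32.1 and 34.7 in control pro-B cells (log2 difference 2.25, standard error 0.34, limma adjusted p = 0.102), although it was at or below the array median everywhere. *Icos*, an inducible costimulator, had 263 and 314, against 97.0, 99.1 and 94.5 (1.57, standard error 0.23, limma adjusted p = 0.102). *Cd6*, a scavenger receptor of T cells, had 604 and 726, against 324, 324 and 263, and its log2 difference was 1.13 (standard error 0.25). In these 3 genes both *Mef2c*-deficient arrays were above all controls, as they were for 27.5% of all probe sets, unlike *Cd3d*, *Cd3e* and *Cd3g*. The call of *Cd6* was lost without *Mef2c*-deficient replicate 2 (log2 difference 0.999) and with median centring (0.90), whereas those of *Cd8a* and *Icos* were kept with each array left out in turn. The replicate number as a block (1.03) and a fold of 2 in signal also ended the call of *Cd6*.

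Of 22 signalling genes, 5 were called lower and 2 higher, against 13.5% and 10.1% of all probe sets. The lower ones were *Ubash3a*, a negative regulator of T-cell receptor signalling, *Sla*, an adaptor that lowers receptor levels, *Prkcq*, the kinase PKC theta, *Nfatc1*, a calcium-dependent transcription factor, and *Vav1*, an exchange factor that B cells also use. *Ubash3a* had 218 and 104 in *Mef2c*-deficient pro-B cells, against 513, 601 and 479 in control pro-B cells (log2 difference −1.81, standard error 0.39). *Vav1* had 3572 and 2922, against 6439, 8914 and 6531 (−1.16, standard error 0.28). The calls of *Ubash3a* and *Vav1* were kept with each array left out in turn. *Sla* lost its call without either *Mef2c*-deficient array (log2 difference −1.70 without replicate 1 and −1.55 without replicate 2), *Prkcq* without *Mef2c*-deficient replicate 1 (−1.13), and *Nfatc1* without *Mef2c*-deficient replicate 2 (−0.87), control replicate 2 (−1.26) or control replicate 3 (−1.38). Scaling also ended calls. All 5 were lost with housekeeping centring (−0.79 for *Sla*, −0.32 for *Vav1*, −0.98 for *Ubash3a*, −0.69 for *Prkcq* and −0.56 for *Nfatc1*), and those of *Sla* and *Vav1* also after quantile normalization (−0.73 and −0.21) and cyclic loess (−0.60 and −0.16). The calls of *Prkcq* and *Nfatc1* were lost as well by the methods' t-test, with array weights and with the replicate number as a block. Array weights also ended the call of *Sla* (−1.32) and the block that of *Vav1* (−1.23). A fold of 2 in signal ended those of *Vav1* and *Nfatc1*.

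*Plcg1*, the phospholipase that LAT recruits, had 1284 and 482 in *Mef2c*-deficient pro-B cells, against 290.1, 237 and 333 in control pro-B cells, and *Themis*, a regulator of thymocyte selection, had 57.3 and 19.5 against 15.0, 10.8 and 11.4. Both were called higher. Both calls were lost without *Mef2c*-deficient replicate 1 (log2 difference 0.76 for *Plcg1* and 0.66 for *Themis*) and without any single control array (1.34 to 1.58 for *Plcg1* and 1.35 to 1.59 for *Themis*), and that of *Themis* also after quantile normalization (0.93) and cyclic loess (0.86). The call of *Themis* was lost as well with array weights (1.34), by the methods' t-test, with the replicate number as a block (1.39) and at a fold of 2 in signal. That of *Plcg1* was also lost by the methods' t-test. *Themis* was at or below the median of every array. Of the 43 genes, 1 was at least 4 times higher on *Mef2c*-deficient replicate 2 than on every other array, against 1.36% of all probe sets. This was *Lcp2*, which encodes SLP-76, the partner of LAT, with 39.9 and 291 on the *Mef2c*-deficient arrays, against 56.2, 57.4 and 57.4 on the control arrays. *Ptprc* and *Nfatc2* lay just under that cut, at 3.98 and 3.86 times the highest other array.

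Of the 12 receptor chain symbols listed, 2 were measured, and both were at or below the median of every array. The *Tcra* probe set, for the alpha chain, had 12.5 and 20.5 on the *Mef2c*-deficient arrays, against 12.5, 14.1 and 12.5 on the controls, at percentile 11.0 or below on every array, so the array high in CD3 transcripts was not bright in this probe set. *Ptcra*, the surrogate alpha chain of immature thymocytes, had 72.3 and 40.9, against 26.3, 34.3 and 34.3. *Trgv1*, a gamma chain variable segment outside the list and singled out after its values had been seen, had 26.9 and 1379 on the *Mef2c*-deficient arrays, against 36.0, 57.4 and 57.4 on the controls, and so was high on the same array as *Cd3e*. None of the 9 early T-lineage regulators was called in either direction by limma on the values as deposited, 1 having an unadjusted p under 0.05, or by the methods' t-test. Some were called under other settings, among them *Ets1*, lower with median centring, without dim probe sets, with 1 probe set a gene and without *Mef2c*-deficient replicate 1. *Hes1* and *Zbtb7b* were called higher after quantile normalization, after cyclic loess and without *Mef2c*-deficient replicate 2, and together with *Bcl11b* and *Tox* under housekeeping centring. *Bcl11b*, a factor of T-lineage commitment, had 142 and 94.5, against 59.5, 94.5 and 67.7, at or below the median of every array.

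**Figure D3:**
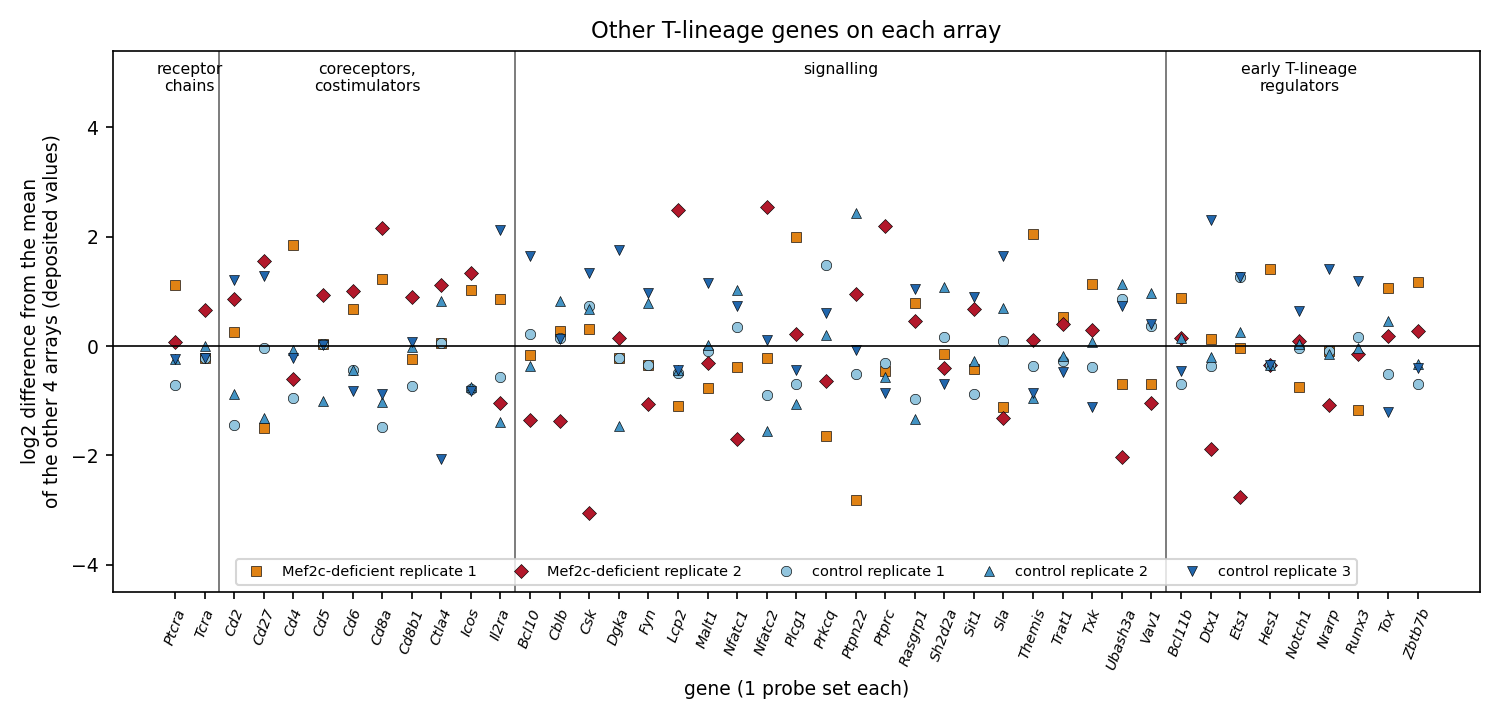
Log2 difference between each array and the mean of the other 4 for the 43 other T-lineage genes, on deposited values and grouped by role, with squares and diamonds for the *Mef2c*-deficient arrays and blue symbols for the controls. *Mef2c*-deficient replicate 2 is not set apart in 1 direction, with *Lcp2*, *Nfatc2*, *Ptprc* and *Cd8a* above 2 and *Csk*, *Ets1* and *Ubash3a* below −2.

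Some markers of other cells were also high on *Mef2c*-deficient replicate 2, on which 4801 of all 23809 probe sets had their highest value. Of 14 NK-cell markers, 8 were highest there, and their summed values were 6042 and 50297 on the *Mef2c*-deficient arrays, against 11324 to 13324 on the controls. On replicate 2, 3 of these 14 markers were at least 4 times every other array, against 1.36% of all probe sets. So were 3 of 7 erythroid markers, 2 of 13 plasmacytoid dendritic cell probe sets and 0 of 14 myeloid markers. *Il2rb*, a cytokine receptor chain of NK and T cells, had 178 and 19389 on the *Mef2c*-deficient arrays, against 324, 452 and 409 on the controls, and *Ccl5*, a chemokine of the same cells, had 94.5 and 19367, against 1207, 1207 and 1149. Both were named for a high mean over the arrays, which replicate 2 itself raised, so nothing is read from their height there. *Ncr1*, which defines NK cells, was at or below the median of every array, at 47.6 and 106 on the *Mef2c*-deficient arrays and 22.1 to 38.0 on the controls. The NK markers *Prf1* and *Klrd1*, encoding perforin and CD94, were within or below the control range on replicate 2, *Prf1* at 3612 and 3404 on the *Mef2c*-deficient arrays against 6644 to 9364 on the controls, and *Klrd1* at 399 and 616 against 608 to 939.

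Of 13 plasmacytoid dendritic cell probe sets, 8 were highest on *Mef2c*-deficient replicate 2, with a median 3.04-fold above the other arrays. Their summed values were 269277 and 234254 on the *Mef2c*-deficient arrays and 119529 to 364964 on the controls. Of 7 erythroid markers, 4 were highest there (median 5.81-fold), summing to 32927 and 22608 on the *Mef2c*-deficient arrays and 61539.7 to 94417 on the controls. Of 14 myeloid markers 7 were highest there (median 1.41-fold), while the median was 1.72-fold on control replicate 2. Of 11 B-lineage markers, 4 were lowest on *Mef2c*-deficient replicate 2 (median 0.537-fold) and 4 on control replicate 2 (0.689-fold), where 5662 and 2719 of all probe sets were lowest, and 10 were highest on control replicate 3 (2.77-fold). *Blnk*, the B-cell adaptor, was at 25010 and 2661 on the *Mef2c*-deficient arrays, against 18899 to 41783 on the controls. The part of these cells, of the sort and of the hybridisation controls in the CD3 values was not tested, and in bulk RNA more cells of a type and more RNA per cell cannot be told apart.

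**Figure D4:**
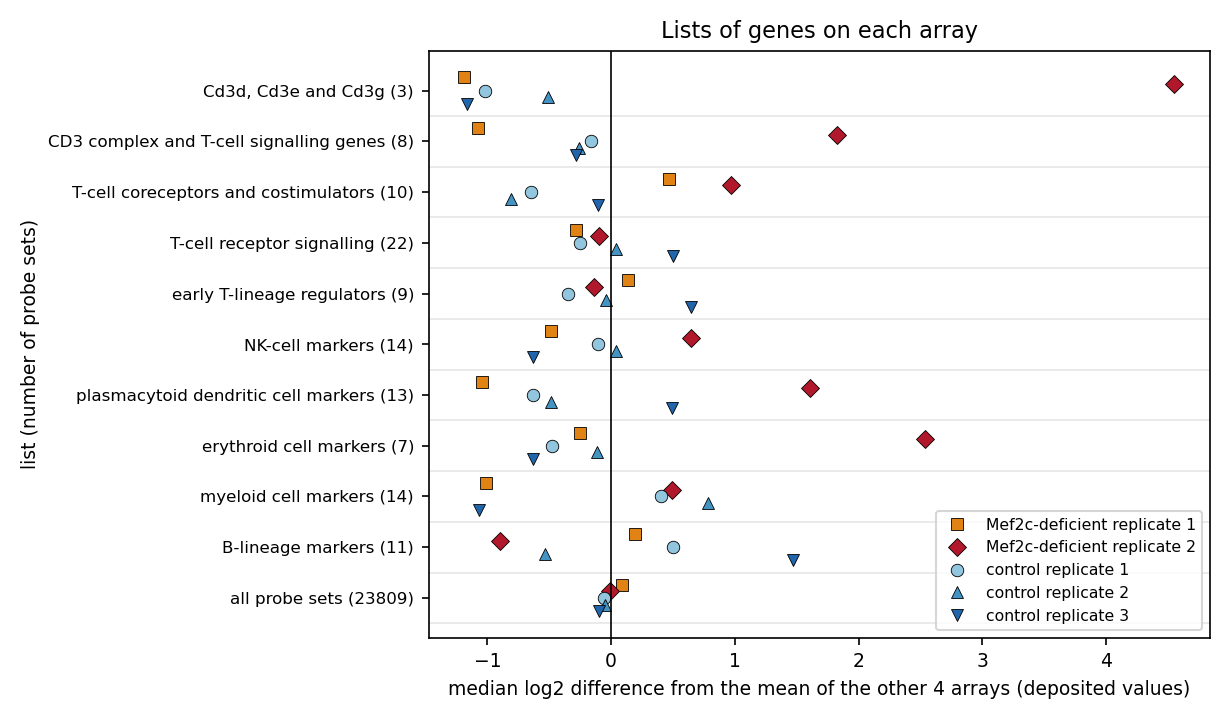
Median log2 difference between each array and the mean of the other 4, over lists of genes, on deposited values, with the number of probe sets in brackets. On *Mef2c*-deficient replicate 2 the median is 4.55 for *Cd3d*, *Cd3e* and *Cd3g*, above 2 for erythroid markers, below 0 for B-lineage markers and near 0 for all probe sets.

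The 8 named probe sets whose profile over the 5 arrays was most like the mean profile of the 8 genes were those of *Gnmt*, *Chid1*, *Saraf*, *Dennd11*, *Zfp687*, *Il6ra*, *Ap5b1* and *Apom*. Likeness was the Euclidean distance between centred log2 profiles among 11657 candidates, and it ran from 0.24 to 0.38. The 8 genes themselves lay 1.70 to 3.46 from their own mean profile, farther than these neighbours, so the mean describes no single one of them.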

How the data were processed

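RNA of sorted pro-B cells was measured on Affymetrix Mouse Genome 430 2.0 arrays, 1 per sample. The authors deposited RMA intensity values on a linear scale whose base the sources used here do not give, and their methods excluded probe sets absent or marginal in more than 4 replicates. Columns were grouped by the labels, with 2 *Mef2c*-deficient and 3 control arrays. Log2 of the deposited values was fitted with limma 3.58.1 in R 4.3.3 across 23809 probe sets, without the 26 controls and with no filter or covariate, after the code was tested on simulated data. Of all probe sets, 17621 had 1 gene symbol in the annotation used, 516 several, and 5672 were not listed. The study calls its control and *Mef2c*-deficient array samples independent. The labels do not say whether samples of a group came from separate mice, so p-values measure the spread between these arrays. The number of arrays limits the precision.

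The members, the gene lists and the tests were chosen with earlier results of these data known. The text names every member with its probe set, other T-lineage genes called at the thresholds, a few bright or defining genes of each marker list, and the 8 probe sets nearest in pattern. Bright here means a high mean over the arrays, which 1 high array can raise. *Lcp2*, *Tcra*, *Ptcra*, *Bcl11b*, *Blnk*, *Nfatc2*, *Csk*, *Ets1*, *Hes1*, *Zbtb7b*, *Tox*, *Ighm*, *Spn*, *Ptprc*, *Cd22* and *Trgv1* were named after their values had been seen. Alternatives were a further quantile normalization, cyclic loess, median and housekeeping centring, array weights, the methods' unpaired t-test, a fold of 2 in signal, omission of dim probe sets, 1 probe set a gene, a replicate block, and leaving out each array. Figures were drawn with matplotlib 3.10.9.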

Additional observations from a re-analysis of the deposited data

How the results depend on the processing

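The direction of *Thy1* turned with median centring, without *Mef2c*-deficient replicate 2 (−2.14) and without control replicate 2 (−0.06). That of *Cd247* turned with cyclic loess and that of *Cd3g* without *Mef2c*-deficient replicate 2. None of these genes was called in the fit to all arrays. Of the 8 genes, 2 were called lower with median centring (*Cd247* and *Zap70*) and 3 higher with housekeeping centring (*Cd3d*, *Cd3e* and *Gata3*). With each array left out in turn, 0 to 2 were called lower and 0 to 4 higher.

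Counts over all probe sets, 3206 lower and 2401 higher with all arrays, moved as follows. The number lower was 1832 after quantile normalization and also 1832 after cyclic loess, 601 with housekeeping centring, 1934 by the methods' t-test and 2025 at a fold of 2 in signal. The number higher was 1591 after cyclic loess, 1558 with median centring, 11194 with housekeeping centring, 1460 with array weights, 1368 by the methods' t-test, 1089 at a fold of 2 in signal and 1123 without dim probe sets. With each array left out it ran from 1404 to 4389, the highest without *Mef2c*-deficient replicate 2.

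Of the 43 other T-lineage genes, 5 lower with all arrays, the number lower was 3 after quantile normalization, cyclic loess, the t-test and the signal fold, 8 with median centring, 0 with housekeeping centring and 2 with array weights, and 3 to 6 with each array left out. The number higher, 5 with all arrays, was 9 after quantile normalization and after cyclic loess, 18 with housekeeping centring, 3 by the t-test, at the signal fold and without dim probe sets, and 3 to 8 with each array left out. The causes were not tested.

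The median deviation of *Mef2c*-deficient replicate 2 over the 8 genes, 1.82, was 2.58 after quantile normalization, 2.46 after cyclic loess, 2.34 with housekeeping centring, 2.96 without dim probe sets and 1.27 to 2.07 with another array left out. Over *Cd3d*, *Cd3e* and *Cd3g* it was 4.45 to 5.14 under the 4 scalings, and the median log2 difference of the 8 genes, 0.61, was −0.80 without that array, both alternatives chosen after seeing the data.

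Replicates 1 and 2 share numbers between the groups, and their deviations from the group means correlated at 0.105 and −0.031. With 2 *Mef2c*-deficient arrays these deviations mirror each other, so arrays of unlike number gave the same values with the sign turned (−0.105 and 0.031). The check therefore cannot decide whether the numbers pair the samples. With the replicate number as a replicate block, 1 of the 8 genes (*Zap70*) was called lower and 0 higher, and 9.17% of all probe sets were called lower and 4.29% (1022) higher.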

Other observations

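Genes whose profile over the 5 arrays was nearest to the mean of *Cd3d*, *Cd3e* and *Cd3g*, a choice made after the values had been seen, were not T-cell receptor genes by name. They were *Pik3cb*, *Itgb2l*, *Ang*, *Slc22a15*, *Abca9*, *Slc2a3*, *H2-Eb2* and *Fry*, at distances of 0.36 to 0.82 among 11657 candidates. *Cd3e* and *Cd3d* themselves lay 1.23 and 1.30 from this mean, farther than these neighbours, and *Cd3g* lay 0.64 from it. *Pik3cb*, a catalytic subunit of phosphoinositide 3-kinase, had 168 and 5936 on the *Mef2c*-deficient arrays, against 223, 223 and 143 on the controls. *Slc2a3*, a glucose transporter, had 465 and 13454, against 808, 887 and 631. The named probe sets with a larger ratio than *Cd3e* on *Mef2c*-deficient replicate 2 were *Btn1a1* (181-fold over the highest of the other 4 arrays), *Nhlrc1* (97.4-fold), *Il2rb* (42.9-fold) and *Ctse* (42.1-fold). *Trgv1* was the eighth by this ratio at 24.0-fold.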
